A study of Homo sapiens with 6 samples.

Results

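The genes described are the 4 receptors of the ERBB family (EGFR, ERBB2, ERBB3 and ERBB4) and 6 EGF-like ligands (AREG, EREG, HBEGF, TGFA, BTC and NRG1), in H441 lung cancer cells whose ETS2 had been lowered by RNA interference. They were listed by name. Of the 10, 9 were read by a probe set, called a probe here, with exactly 1 gene symbol in the platform annotation, out of 18417 genes read in this way. AREG, which encodes amphiregulin, had no such probe and was not analysed here. NRG1 had 2 probes, of which the brighter was used, and the other 8 genes had 1 each.

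H441 cells are an established line derived from a human lung adenocarcinoma. The control group received a pool of scrambled siRNA and the other group a pool of siRNA against ETS2, with a lipid reagent, and RNA was isolated after 48 h. The labels describe 3 independent transfections per group, with 1 array for each, and all 6 arrays come from 1 cell line and 1 siRNA reagent per group. Levels are log2 values after RMA, an array normalisation, and a positive difference means a higher level after ETS2 siRNA.

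ERBB receptors are receptor tyrosine kinases that pair when a ligand binds and then activate the RAS-ERK and PI3K pathways. EGFR and ERBB4 bind ligands and have active kinases, ERBB2 has no known ligand and acts as the partner of the others, and ERBB3 has a weak kinase and signals through its partners. The ligands are made as membrane-anchored precursors that proteases of the ADAM family release from the cell surface. In the lung this system takes part in the repair of damaged epithelium, and EGFR and ERBB2 are known oncogenes of lung adenocarcinoma. ETS2, an ETS transcription factor, is itself a target of ERK signalling.

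ETS2 was the check of the knockdown. Its level read 9.79, 9.91 and 9.79 on the control arrays and 8.87, 8.70 and 8.78 after ETS2 siRNA, so that the groups did not overlap and 48.4% of the control level was left. Over all genes, 904 of 18417 changed, 4.91%, of which 420 (2.28%) were higher and 484 (2.63%) lower. More genes were higher than lower under each of 3 rescalings, with 396 against 349 after median centring, 590 against 503 after a second quantile normalisation and 406 against 371 after equalising the ribosomal protein genes. Changed means an adjusted p below 0.05 in limma, with the adjustment over all 18417 genes. Of 12 measured markers of lung epithelium, 10 lay above a background floor of 6.67, the 95th percentile of 341 olfactory receptor genes. The type II cell marker SFTPC and the club cell marker SCGB1A1 were the 2 at background. Of the 12, 0 rose and 2 fell, the surfactant protein gene SFTPB (log2 difference -0.36, adjusted p = 0.00770 in limma) and the epithelial ETS factor gene ELF3 (-0.23, adjusted p = 0.0132). Markers of leukocytes lay above the floor for 3 of 8 genes, of fibroblasts for 5 of 8, of endothelium for 2 of 6 and of erythroid cells for 1 of 2, and 0 of these 24 genes changed in limma. PTPRC, the pan-leukocyte marker, read 4.72 after ETS2 siRNA, below the floor. The summed level of the leukocyte markers ran from 11.47 to 11.57 on the control arrays and from 11.59 to 11.70 after ETS2 siRNA, with a difference of 0.17 for CD68 (adjusted p = 0.107), and that of the endothelial markers from 10.42 to 10.49 and from 10.30 to 10.37, with a difference of -0.18 for KDR (adjusted p = 0.0850). Their part in the results was not tested.

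HBEGF was the member that changed. It encodes heparin-binding EGF-like growth factor, a ligand of EGFR and ERBB4 whose membrane-bound precursor is also the receptor of diphtheria toxin. Its level read 10.79, 10.74 and 10.88 on the control arrays and 11.11, 11.02 and 11.06 on the ETS2 siRNA arrays. All ETS2 siRNA arrays lay above all control arrays, and the group means were 10.80 ± 0.07 and 11.06 ± 0.05 (SD, n = 3). The log2 difference was 0.26, a fold of 1.20, with a standard error of 0.0488 and a 95% interval of 0.15 to 0.37 (adjusted p = 0.0232 in limma). In RNA from whole cultures, more cells with HBEGF RNA and more of it per cell cannot be told apart. Among the 420 genes that rose it ranked 190 by size, and the median rise of those genes was 0.25. The direction of HBEGF did not depend on any 1 array, but its call was kept in only 1 of the 6 fits that left out an array. Such fits have fewer arrays and called fewer of all genes, between 213 and 735 against 904. The adjusted p in limma was 0.0796 without control siRNA replicate 1, 0.0524 without control siRNA replicate 2, 0.0859 without ETS2 siRNA replicate 1, 0.0659 without ETS2 siRNA replicate 2 and 0.0968 without ETS2 siRNA replicate 3, while without control siRNA replicate 3 it was 0.0370. The differences in these smaller fits ran from 0.23 to 0.30.

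**Figure D1:**
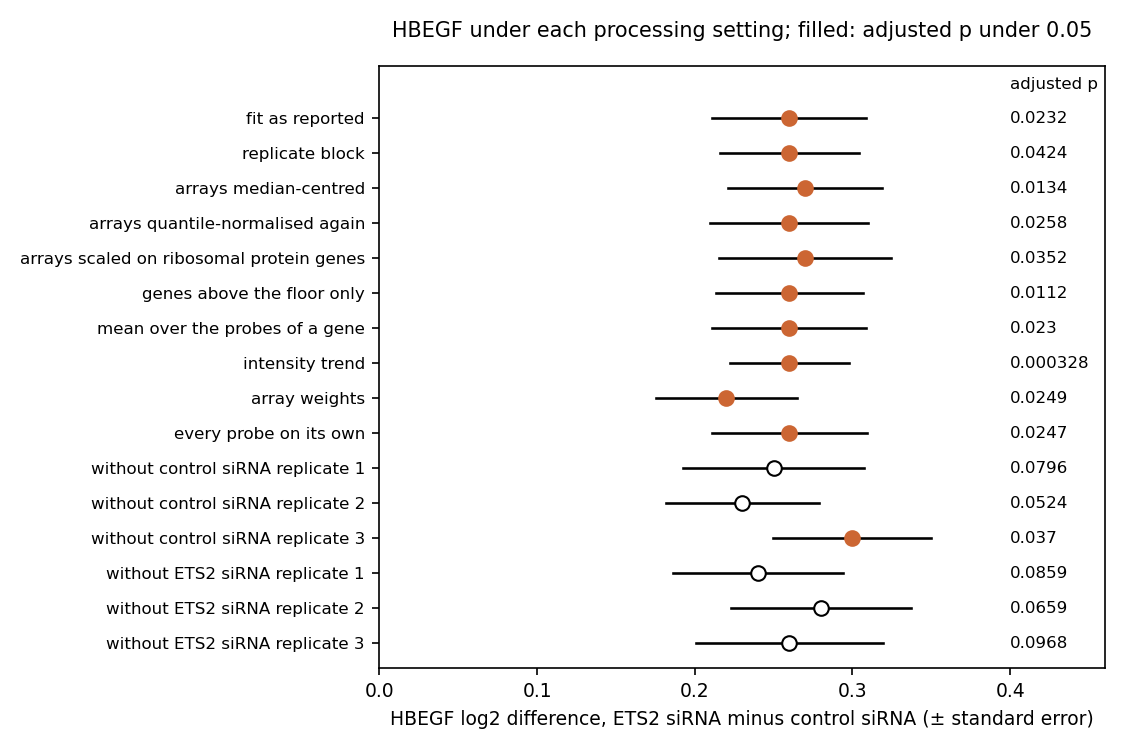
Log2 difference of HBEGF between ETS2 siRNA and control siRNA (horizontal axis, points, with bars of 1 standard error) for the fit as reported and 15 other settings, with the adjusted p of each at the right. The difference lies between 0.22 and 0.30 in each of the 15, filled points mark an adjusted p under 0.05, and the 5 open points are fits that leave out 1 array.

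The promoter of HBEGF is shown because it is the promoter of the member that changed when an ETS factor was lowered, and ETS factors bind sequences with the core GGAA. The 250 bases before the start of the gene in RefSeq (GRCh38.p14, chr5:140346604-140346853, minus strand) are printed 5′ to 3′, with GGAA or its reverse complement TTCC in capitals.
HBEGF: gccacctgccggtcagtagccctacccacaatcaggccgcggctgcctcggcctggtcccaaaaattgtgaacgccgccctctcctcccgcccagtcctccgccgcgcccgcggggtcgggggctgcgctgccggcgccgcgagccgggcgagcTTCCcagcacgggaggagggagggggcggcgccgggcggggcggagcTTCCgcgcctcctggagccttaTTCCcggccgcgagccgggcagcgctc
The window holds 3 matches, starting 96, 49 and 27 bases before the start and each written TTCC on the strand of the gene. The core is short, and 92.7% of 35116 RefSeq promoter windows of the same length hold it on either strand, with a median of 3 matches. The longer ETS sequence CCGGAAGT, which contains the core and is held by 3.42% of the windows, and the AP-1 sequence TGANTCA, held by 6.57%, were searched on both strands and were not among these letters. The HBEGF window is 76.4% G and C, against a median of 58% over all windows.

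The other 4 ligands read did not pass the test. EREG, which encodes epiregulin, a ligand of EGFR and ERBB4, read 12.44, 12.41 and 12.48 in control cells and 12.53, 12.46 and 12.54 after ETS2 siRNA. The ETS2 siRNA arrays tended higher but the groups overlapped at 12.46 and 12.48, and the difference of 0.07 (95% interval -0.03 to 0.16) had an adjusted p of 0.474 in limma. TGFA, which encodes transforming growth factor alpha, a ligand of EGFR, read 10.65, 10.73 and 10.69 in control cells and 10.62, 10.65 and 10.74 after ETS2 siRNA. Its highest and its lowest array were both ETS2 siRNA arrays, and the difference was -0.02 (95% interval -0.13 to 0.09, adjusted p = 0.886 in limma).

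BTC, which encodes betacellulin, a ligand of EGFR and ERBB4, read 7.89, 7.90 and 7.96 in control cells and 7.94, 7.74 and 7.91 after ETS2 siRNA. ETS2 siRNA replicate 2 stood lowest and the other 2 lay within the control range, with a difference of -0.05 (95% interval -0.19 to 0.08, adjusted p = 0.713 in limma). NRG1, which encodes neuregulin 1, the ligand of ERBB3 and ERBB4, lay below the floor on all arrays. Its brighter probe read 5.53, 5.37 and 5.37 in control cells and 5.45, 5.38 and 5.38 after ETS2 siRNA, and its dimmer probe read between 4.77 and 4.95. The probes gave differences of -0.02 and 0.07, and neither level was above background. Both groups were thus at background for NRG1, and no fold is given.

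**Figure D2:**
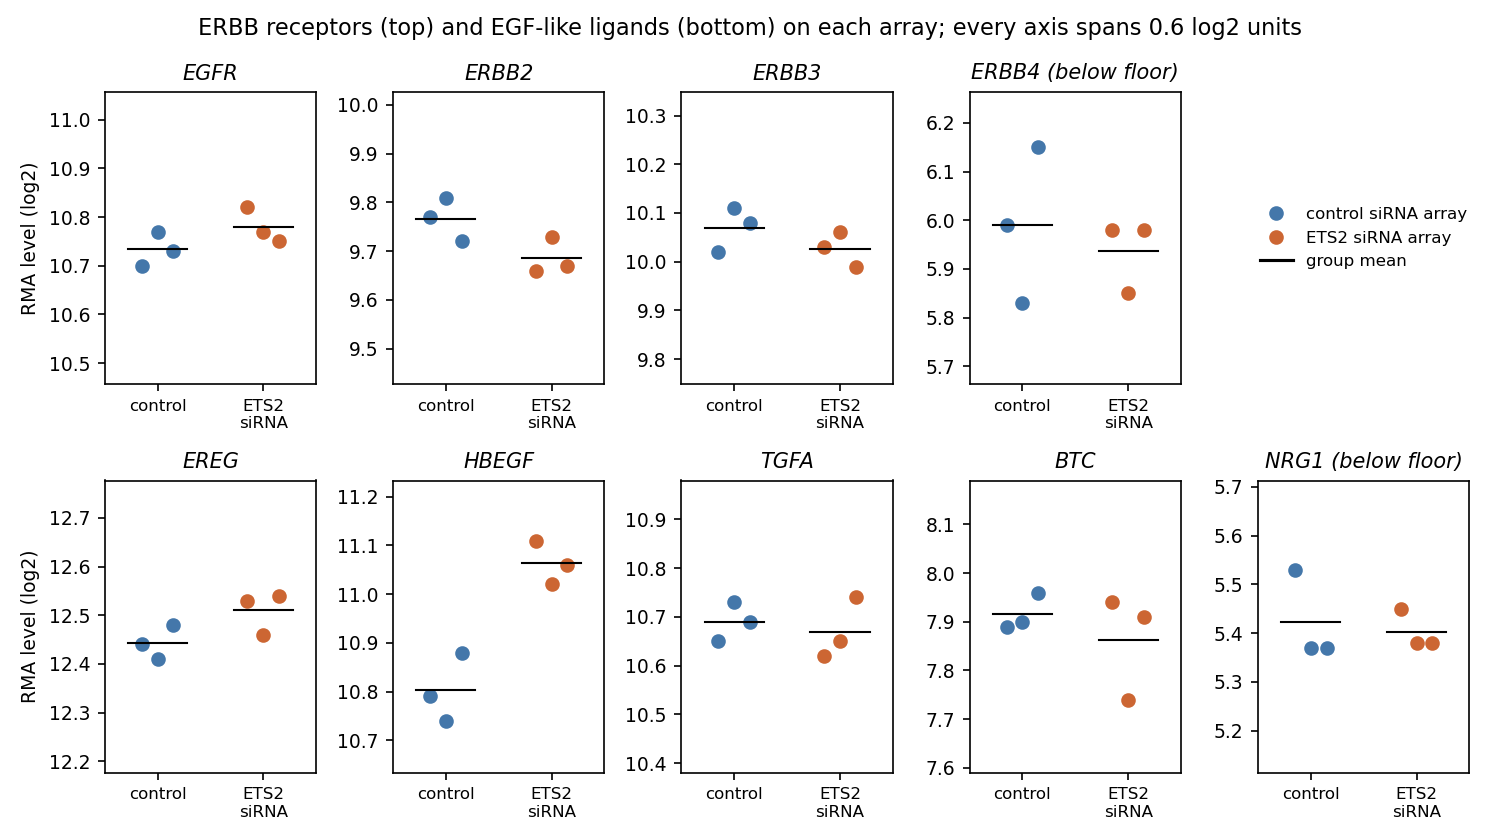
RMA level (log2, vertical axis) of the 9 genes read, 1 point per array, 3 control siRNA arrays and 3 ETS2 siRNA arrays per gene, with a line at each group mean; each axis spans the same range of 0.6 but starts at its own level. The groups separate for HBEGF, from 10.74 to 10.88 against 11.02 to 11.11, and overlap for the other 8 genes.

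Of the receptors, 0 of 4 changed in limma, 0 of 4 had an unadjusted p under 0.05, as 18.5% of all genes did, and 3 of 4 lay above the floor. EGFR, the receptor of EGF itself, read 10.70, 10.77 and 10.73 in control cells and 10.82, 10.77 and 10.75 after ETS2 siRNA. The groups overlapped between 10.75 and 10.77, and the difference was 0.05 (95% interval -0.05 to 0.14, adjusted p = 0.627 in limma). ERBB2 read 9.77, 9.81 and 9.72 in control cells and 9.66, 9.73 and 9.67 after ETS2 siRNA. It came closest of the receptors to a separation of the groups, which overlapped only between 9.72 and 9.73, with a difference of -0.08 (95% interval -0.18 to 0.02, unadjusted p = 0.0946 and adjusted p = 0.379 in limma).

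ERBB3, the partner of ERBB2 in neuregulin signalling, read 10.02, 10.11 and 10.08 in control cells and 10.03, 10.06 and 9.99 after ETS2 siRNA. The groups overlapped between 10.02 and 10.06, and the difference was -0.04 (95% interval -0.14 to 0.05, adjusted p = 0.671 in limma). ERBB4 read 5.99, 5.83 and 6.15 in control cells and 5.98, 5.85 and 5.98 after ETS2 siRNA. All 6 values were below the floor, and those after ETS2 siRNA lay inside the control range. The receptor and its ligand NRG1 were thus the 2 members at background in both groups.

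The end of the ERBB2 window is shown because it holds the longer ETS sequence, which the HBEGF window did not. This was the only window used for ERBB2, and any other start of the gene was not searched. The 30 bases (RefSeq, GRCh38.p14, chr17:39688063-39688092, plus strand) run 5′ to 3′ with GGAA and TTCC in capitals.
ERBB2: TTCCacTTCCggagtaaccGGAAgTTCCtg
CCGGAAGT is present 2 times, once on each strand, starting 27 and 14 bases before the start. RefSeq promoter windows were used for 8 of the 10 genes, with 2 windows each for EGFR and TGFA. No window of ERBB3 or NRG1 was used, so the promoters of these genes were not searched. The ERBB2 window alone among these 10 windows held CCGGAAGT, and all 10 held the core, with between 1 and 7 matches. TGANTCA was found in the ERBB2 window and, 2 times, in the downstream window of EGFR. These are matches of letters and not measured binding sites.

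**Figure D3:**
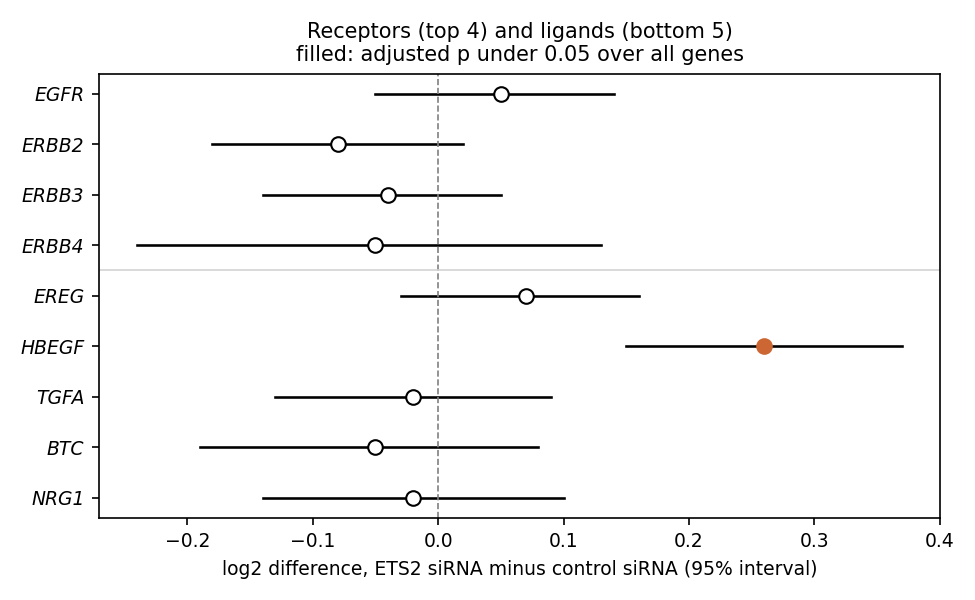
Log2 difference between ETS2 siRNA and control siRNA (horizontal axis) for the 4 receptors and 5 ligands read, with 95% intervals from limma; the filled point passed an adjusted p of 0.05 over all genes. The interval of HBEGF runs from 0.15 to 0.37 and the intervals of the other 8 genes include 0.

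Across the 9 genes, 1 was higher and 0 were lower by the test, against a background of 4.91% of all genes changed and 2.28% higher. The share of a list of 9 that 1 gene makes is too coarse to set against that background. The groups did not overlap for 1 of the 9, against 23.1% of all genes (11.6% with ETS2 siRNA higher), and 6 of the 9 differences were negative. Their median was -0.02, and that of all genes was 0.00. Spread between arrays was small, with group SDs between 0.04 and 0.16. At the p that the adjustment required, a difference between 0.17 and 0.25 would have been called for the 7 members above the floor. Smaller differences of these members would not have been called after the adjustment with 3 arrays per group.

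The other ligands of the family, NRG2 excepted, were at background. EGF, EPGN (epigen), NRG3 and NRG4 had both group means below the floor. NRG2, a neuregulin, was the 1 of 5 above it, at 7.84 ± 0.07 (SD, n = 3) in the control group and 7.91 ± 0.06 (SD, n = 3) in the other. Of these 5 genes 0 changed in limma, and 0 had an unadjusted p under 0.05.

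Among genes for shedding of the ligands, inhibitors of the sheddases included, 2 of 15 rose and 0 fell (13.3%, against 4.91% of all genes), with a median difference of 0.05. Of the 15, 13 lay above the floor, against 70.8% of all genes. The list was chosen with earlier results of these data known. So few changed genes make its share too coarse to set against that of all genes. ADAM19, a metalloprotease that cleaves neuregulins, read 8.13, 8.27 and 8.11 in control cells and 8.46, 8.54 and 8.60 after ETS2 siRNA. The groups did not overlap, and the rise was 0.36 (SE 0.0572, adjusted p = 0.0127 in limma). RHBDF2, which encodes iRhom2, a protein needed for maturation of the sheddase ADAM17, read 8.27, 8.41 and 8.29 in control cells and 8.58, 8.51 and 8.55 after ETS2 siRNA, a rise of 0.22 (SE 0.0486, adjusted p = 0.0403 in limma). ADAM17 itself, the main sheddase of HBEGF, EREG and TGFA, had a difference of 0.05 (adjusted p = 0.599), and ADAM10, which cleaves BTC, one of -0.09 (adjusted p = 0.303). Leaving out an array ended the ADAM19 call for control siRNA replicates 1 and 3 and ETS2 siRNA replicates 2 and 3 (adjusted p up to 0.0659), and the RHBDF2 call for any array except control siRNA replicate 2 (up to 0.144). RHBDF2 was also not called when arrays were scaled on ribosomal protein genes (adjusted p = 0.0505) or when the replicate number was a block (0.0874).

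Of 14 genes for proteins that bind or stabilise the receptors or ligands, 1 rose and 1 fell (14.3%, against 4.91% of all genes), with a median of 0.00. Of the 14, 13 lay above the floor, against 70.8% of all genes. This list too was chosen with earlier results of these data known, and its share is as coarse. CD44, a surface glycoprotein whose heparan sulfate forms bind HBEGF, read 9.13, 9.40 and 9.06 in control cells and 9.68, 9.65 and 9.60 after ETS2 siRNA. Its control arrays were more spread than its ETS2 siRNA arrays, and the rise was 0.45 (SE 0.0823, adjusted p = 0.0219 in limma). MUC4, a membrane mucin that associates with ERBB2, read 10.77, 10.85 and 10.83 in control cells and 10.48, 10.59 and 10.53 after ETS2 siRNA, a fall with a log2 difference of -0.28 (SE 0.0447, adjusted p = 0.0128). ERBIN, a scaffold that binds ERBB2, stood at -0.14 (adjusted p = 0.118), and the chaperone genes HSP90AA1, HSP90AB1 and CDC37 at 0.00, 0.01 and 0.03. The CD44 call was lost without any array except control siRNA replicate 2 (adjusted p up to 0.0875), and that of MUC4 without control siRNA replicate 3 or ETS2 siRNA replicates 1 or 3 (up to 0.0661).

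Of 36 measured genes that inhibit, ubiquitinate or traffic the receptors, 2 fell and 0 rose, with a median of 0.01. That is 5.56%, near the 4.91% of all genes. LRIG1, a membrane protein that promotes degradation of ERBB receptors, read 8.58, 8.58 and 8.66 in control cells and 8.33 on each of the 3 ETS2 siRNA arrays. The log2 difference of LRIG1 was -0.28 (SE 0.0396, adjusted p = 0.00920 in limma). CD2AP, an adaptor that binds the ubiquitin ligase CBL, read 11.39, 11.29 and 11.33 in control cells and 11.06, 11.07 and 11.06 after ETS2 siRNA, with a log2 difference of -0.27 (SE 0.0405, adjusted p = 0.0104). The ubiquitin ligase genes CBL, CBLB and CBLC had differences of 0.05, -0.14 and -0.13, and ERRFI1, an inhibitor that binds the EGFR kinase, one of -0.13 (adjusted p = 0.120). These 4 did not pass the test. The LRIG1 call was lost without ETS2 siRNA replicate 3 (adjusted p = 0.0538), and the CD2AP call without ETS2 siRNA replicates 2 or 3 (up to 0.0592).

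Of 24 measured adaptors and proximal effectors, 1 fell and 0 rose, with a median of -0.01. That is 4.17%, near the 4.91% of all genes. PIK3R3, a regulatory subunit of PI3K, read 9.65, 9.79 and 9.75 in control cells and 9.39, 9.29 and 9.34 after ETS2 siRNA. Its log2 difference was -0.39 (SE 0.0498, adjusted p = 0.00638 in limma), and it was called with any single array left out, with adjusted p from 0.0108 to 0.0411. PIK3R1, another regulatory subunit, stood at -0.10 (adjusted p = 0.402). The adaptor genes GRB2, SHC1 and GAB1, which link the receptors to RAS and PI3K, stood at -0.01, 0.10 and -0.04.

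Genes known to respond to EGF within hours held the most calls of the 8 lists. Of 34 measured, 7 rose and 1 fell (23.5%, against 4.91% of all genes), with a median of 0.04. All 34 lay above the floor, as 70.8% of all genes did, so the shares are of genes unlike in level. In a fit of the 13043 genes above the floor alone, 1397 changed, a larger share than 4.91%. The share of the list in that fit is not given here. HBEGF is one of the 34, and several of these genes were known to change in these data when the list was written, so the share is no independent evidence. Besides HBEGF, KLF2 rose by 0.31, KLF6 by 0.27, DUSP4 by 0.26, DUSP5 by 0.25, the receptor tyrosine kinase gene EPHA2 by 0.25 and FOSL1, an AP-1 subunit, by 0.18. DUSP4 and DUSP5 encode phosphatases that inactivate ERK, and KLF2 and KLF6 encode zinc finger transcription factors. DUSP1, another MAP kinase phosphatase, read 10.05, 10.12 and 10.03 in control cells and 9.79, 9.77 and 9.79 after ETS2 siRNA, a log2 difference of -0.28 (SE 0.0401, adjusted p = 0.00864 in limma). The immediate early genes EGR1, FOS and JUN stood at -0.18, -0.04 and 0.06 and did not pass the test (adjusted p = 0.0694, 0.857 and 0.561).

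Each call among the EGF-responsive genes was lost in at least 1 fit with 1 array left out. Such fits have fewer arrays and called fewer of all genes, between 213 and 735 against 904. FOSL1 was not called with any 1 array left out (adjusted p from 0.0631 to 0.130) nor with the replicate number as a block (0.0720). DUSP1 was lost without ETS2 siRNA replicate 3 (0.0510), KLF2 without ETS2 siRNA replicates 1 or 2 (up to 0.0527), and DUSP5 without control siRNA replicate 3 or ETS2 siRNA replicates 1 or 3 (up to 0.0672). EPHA2 was lost without control siRNA replicate 1 or any ETS2 siRNA replicate (up to 0.0971), and DUSP4 and KLF6 without any array except control siRNA replicate 2 (up to 0.123 and 0.0864). Each of these genes kept its direction in these fits.

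**Figure D4:**
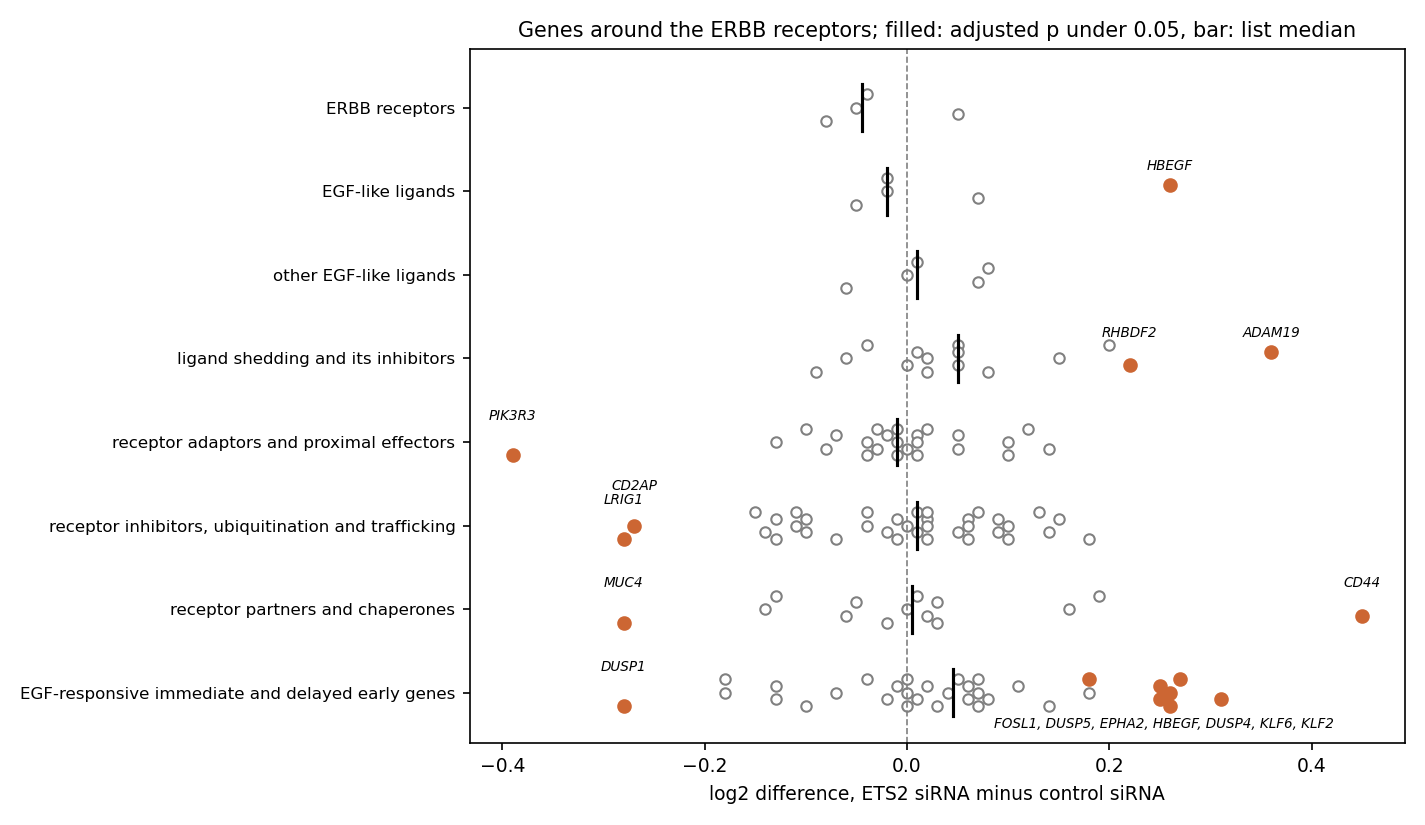
Log2 difference between ETS2 siRNA and control siRNA (horizontal axis) for every measured gene of 8 lists around the ERBB receptors, 1 point per gene, with a bar at each list's median; filled, named points passed an adjusted p of 0.05 over all genes, and names under the lowest row run from left to right. The list medians lie between -0.05 and 0.05, and the filled points run from PIK3R3 at -0.39 to CD44 at 0.45.

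HBEGF was compared with 13042 other genes above the floor by the Pearson correlation of their values over the 6 arrays. The 5 most alike were FAM86JP and ST20 (both r = 0.997), ABHD15 (0.996), CCSER2 (0.994) and GPC1 (0.990), which encodes the heparan sulfate proteoglycan glypican 1. Their log2 differences of 0.09, 0.12, 0.16, 0.08 and 0.19 were smaller than that of HBEGF, and 0 of the 5 changed in limma. With 6 points from the same arrays and so many genes searched, these values are a description.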

How the data were processed

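The deposited table holds log2 expression values for 33297 probes on 6 arrays hybridised with biotin-labelled cRNA. The authors made these log2 values with RMA, per the submitters' processing notes; its version and settings, and the genome build, were not given in the sources used here. RMA equalises the distributions of the arrays, which would hide a change common to all genes, and shrinks the folds of dim ones.

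Probes with 1 gene symbol (19460) were kept, symbols were checked by gene identifier against RefSeq (19429 matched, 0 changed), and the brightest probe per gene was used. Differences between groups came from limma 3.58.1 under R 4.3.3, fitted to all 6 arrays (lmFit, eBayes, two-sided, Benjamini-Hochberg over 18417 genes). The procedure was also run on simulated data with independent noise for each gene and no effect shared by an array. Such data cannot show how the calls fare where arrays share effects. With 3 arrays per group the smallest exact permutation p is 0.1, so none was used. P-values measure the spread between transfections of 1 cell line, and the number of arrays limits the precision.

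Members and gene lists were chosen with earlier results of these data known. The text names the members, ETS2, changed list genes, the 5 genes most correlated with a changed member, and some unchanged list genes chosen after their values were seen. Some genes of the lists were not analysed here. Alternatives were the replicate block, 3 rescalings, a filter on dim genes, 2 probe rules, an intensity trend, array weights and each array left out.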

Additional observations from a re-analysis of the deposited data

How the results depend on the processing

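HBEGF was called and was the 1 member called under each of the 9 alternatives that kept all arrays, including the replicate block (difference 0.26, adjusted p = 0.0424), and with arrays left out in turn the count of changed members lay between 0 and 1. The other 8 members were not called under the 15 alternatives, or under the 14 that could be run for ERBB4 and NRG1, which the filter on dim genes leaves out. EGFR and EREG stayed positive and ERBB2 and ERBB3 negative in all 15, while ERBB4, TGFA, BTC and NRG1 took both signs or 0. The count of all changed genes, 904, became 604 with the replicate block, 1397 with genes above the floor only, 1963 with an intensity trend and 1480 with array weights, and between 213 and 735 with 1 array left out. Same-numbered arrays deviated together with r of 0.18, 0.18 and 0.04, which does not show that the numbers pair the transfections.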
